A study of Mus musculus with 12 samples.

Results

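The interleukin-1 (IL-1) family genes described here are the 9 rows of the count table with the symbols Il1a, Il1b, Il1rn, Il18, Il1r1, Il1r2, Il1rap, Il18bp and Il1rl1, of 50559 rows in all. They were taken by symbol, with earlier results of these data known. RNA sequencing was done on bone marrow-derived macrophages of C57BL/6 mice, which are macrophages grown in culture from bone marrow. There were 6 libraries of cells given house dust mite (HDM) allergen for 1 h and 6 of cells given vehicle for 1 h. The labels name no genotype, age, HDM dose or vehicle, and do not say which libraries share an animal or culture. The p-values therefore cover only the scatter among these libraries, part of which may be technical.

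IL-1 alpha and IL-1 beta are cytokines that start inflammation through the same receptor, IL-1R1, which signals together with the accessory chain IL-1RAP. IL-1 beta and IL-18 are made as inactive precursors and are cut by caspase-1 within inflammasomes, whereas the IL-1 alpha precursor is itself active. Their action is held back by a receptor antagonist (Il1rn), a decoy receptor (Il1r2) and a binding protein for IL-18 (Il18bp). In macrophages the transcript of IL-1 beta is a known early target of NF-kB.

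After 1 h with HDM, Il1b was far higher than with vehicle, Il1a was 3.05-fold higher by the means, and Il1rn was slightly higher in every pair of equally numbered libraries. The decoy receptor gene Il1r2 also had more reads with HDM, though few in any library. The transcripts of IL-18, its binding protein, the receptor chains Il1r1 and Il1rap, and the IL-33 receptor gene Il1rl1 were not called in any fit that was run.

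The stretches before the transcription start of the 3 ligand genes that differed are shown so that their shared and differing motifs can be read beside the expression values. Each is the 250 bases upstream in RefSeq's annotation of build GRCm38.p6, read along the gene's strand, with capitals marking matches to TATAAA on the gene strand or to the AP-1 motif TGANTCA on either strand. Il1a lies at chr2:129309973-129310222 (minus strand), Il1b at chr2:129371140-129371389 (minus strand) and the first annotated start of Il1rn at chr2:24336610-24336859 (plus strand).
Il1a: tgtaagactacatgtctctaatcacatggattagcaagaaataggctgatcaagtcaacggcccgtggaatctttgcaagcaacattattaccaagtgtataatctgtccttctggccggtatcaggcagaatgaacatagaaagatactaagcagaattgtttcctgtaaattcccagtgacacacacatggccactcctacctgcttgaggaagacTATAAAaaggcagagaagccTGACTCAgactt
Il1b: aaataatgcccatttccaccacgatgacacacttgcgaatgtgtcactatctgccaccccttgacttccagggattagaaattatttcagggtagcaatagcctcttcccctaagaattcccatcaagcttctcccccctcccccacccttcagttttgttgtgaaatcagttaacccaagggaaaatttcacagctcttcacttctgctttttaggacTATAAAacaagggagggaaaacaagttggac
Il1rn: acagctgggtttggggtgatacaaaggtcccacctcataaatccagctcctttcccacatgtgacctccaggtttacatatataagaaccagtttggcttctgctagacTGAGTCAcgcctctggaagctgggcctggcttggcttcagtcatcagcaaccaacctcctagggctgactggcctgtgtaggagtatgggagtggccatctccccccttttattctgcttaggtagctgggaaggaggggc

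TATAAA lay 32 to 27 bases before the start in Il1a and 31 to 26 bases before it in Il1b, and in no window of the other 7 members. It was found in 7.59% of all 32851 windows of this length. The AP-1 motif, which reads the same on both strands, lay 12 to 6 bases before the start of Il1a. It also lay 141 to 135 bases before the first annotated start of Il1rn, but in no other window of Il1rn. Of all windows 6.75% held it. The kappa B consensus on either strand was matched in 1 of the windows of Il1r1 only among the members, against 7.25% of all windows, and the cAMP response element TGACGTCA in none of them, against 1.55%. All 9 members had a window in the RefSeq table, and Il1rn had 3. These matches describe letters in a short window and show no binding.

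The depth was 19.8 to 119.7 M counted reads in HDM libraries (median 41.1 M) and 19.7 to 62.4 M in vehicle libraries (median 41.7 M). Levels are given as CPM, counts per M reads after TMM scaling. Read totals of a group are not scaled for depth, and HDM library 1 alone, at 119.7 M, adds to those with HDM. A higher total with HDM is therefore not by itself a higher level. The libraries numbered 5 and 6 of both treatments differed from those numbered 1 to 4 in several members, so values are also given within each of these sets. The macrophage markers Adgre1, Csf1r, Cd68, Itgam, Mertk, Fcgr1 and Lyz2 summed to 16406 to 20217 CPM with HDM and 16150 to 20618 CPM with vehicle, and 0 of 7 were called by group alone or with the block. The 9 neutrophil markers summed to 4.02 to 6.58 CPM with HDM and 3.56 to 6.64 CPM with vehicle, most of it S100a8. Of the 3 tested, 0 were called in either fit: S100a8, S100a9 (113 reads with HDM and 68 with vehicle; log2 fold change with the block 1.07, edgeR, adjusted p = 0.0925) and Ngp (100 and 52 reads; 1.32, adjusted p = 0.103). Of the other 6, Ltf had 63 reads with HDM and 35 with vehicle, Mpo 14 and 3, Elane 8 and 0, Camp 7 and 14, Ly6g 2 and 0, and Retnlg none. The 6 dendritic cell markers summed to 0.400 to 1.20 CPM with HDM and 0.311 to 0.835 CPM with vehicle. Xcr1, the only one tested, had 120 and 65 reads (edgeR, adjusted p = 0.529, and 0.187 with the block). Zbtb46 had 77 reads with HDM and 48 with vehicle, Clec9a 19 and 22, Ccr7 13 and 2, Flt3 8 and 1, and Cd209a 2 and 0. Neutrophils are known to express Il1b and Il1r2. The part of the neutrophil and dendritic cell markers in the members' values was not tested. In these bulk samples fewer cells of a type and less RNA per cell cannot be told apart.

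Il1b, the gene of IL-1 beta, showed the largest fold change of the 8 tested members. With HDM it lay at 32.1 CPM at its lowest, 42.0 CPM in the median and 129 CPM at its highest, against 0.105, 0.424 and 0.777 CPM with vehicle. The groups did not overlap, as was so for 2.32% of all tested genes in this direction and 2.07% in the other. The remaining 8 members overlapped. The vehicle libraries held 5 to 30 reads of Il1b each, 103 in all, and the HDM libraries 766 to 5804. The mean was 66.7 ± 44.1 CPM with HDM and 0.457 ± 0.260 CPM with vehicle (SD over 6 libraries each), a ratio of means of 146. In both treatments the libraries numbered 5 and 6 were the highest, at 129 and 117 CPM with HDM and 0.777 and 0.726 CPM with vehicle.

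The log2 fold change of Il1b was 7.32 ± 0.55 SE (edgeR's quasi-likelihood test, adjusted p = 2.25e-06) and 7.15 ± 0.10 with the replicate number as a block (adjusted p = 4.06e-18). It was 6.98 ± 0.19 in the libraries numbered 1 to 4 alone and 7.37 ± 0.10 in those numbered 5 and 6 alone. The pairs ran from 6.05 for number 4 to 8.76 for number 1, whose vehicle library held the fewest Il1b reads. The antisense transcript Il1bos, which overlaps Il1b, had 19 reads with HDM and 3 with vehicle in all.

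Il1a, the gene of IL-1 alpha, was higher with HDM in 6 of 6 pairs, and it passed in the fit blocked on replicate number but not in the fit on group alone. In the libraries numbered 1 to 4 it lay at 6.77, 6.54, 5.12 and 4.48 CPM with HDM, against 2.20, 2.68, 1.91 and 2.61 CPM with vehicle. In those numbered 5 and 6 it lay at 24.0 and 25.8 CPM with HDM, against 7.20 and 7.26 CPM with vehicle. Within each set the treatments did not overlap, as was also so for Il1b and, at few reads, Il1r2. In numbers 5 and 6 Il1rn parted as well, and so did Il1r1, which was lower with HDM. The share of all genes that part within a set was not computed, so these partings cannot be read as particular to the members. For 2 libraries against 2 an exact permutation test cannot give a p below 0.333, so parting in numbers 5 and 6 says little. Over all 12 libraries the treatments did overlap in Il1a, as vehicle libraries 5 and 6 lay above HDM libraries 1 to 4.

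The log2 fold change of Il1a was 1.66 ± 0.54 SE in the fit on group alone (edgeR, adjusted p = 0.118), and it rose by 1.52 ± 0.10 with the block (adjusted p = 5.3e-09). It was 1.31 ± 0.15 in numbers 1 to 4 (adjusted p = 9.69e-05) and 1.78 ± 0.08 in numbers 5 and 6 (adjusted p = 6.04e-21). The fit in numbers 5 and 6 holds 2 libraries against 2, and its p covers only the scatter among those, which may be technical. Whether the change differed between the sets was not tested. The antisense transcript Gm14023, which overlaps Il1a, had 116 reads with HDM and 80 with vehicle.

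Il1rn, the gene of the IL-1 receptor antagonist, was the most abundant member in both treatments. Numbers 1 to 6 held 486, 477, 385, 359, 736 and 759 CPM in HDM libraries, against 407, 406, 354, 333, 661 and 649 CPM in vehicle libraries. Each HDM library was above the vehicle library of its number, a pairing that the labels do not state, while the groups overlapped widely. The change was small: 0.19 ± 0.23 SE on the log2 scale by group alone (edgeR, adjusted p = 0.924), and a rise of 0.18 ± 0.02 with the block (adjusted p = 4.4e-05). In numbers 1 to 4 it was 0.19 ± 0.10 (adjusted p = 0.316) and in numbers 5 and 6, with 2 libraries against 2, it was 0.19 ± 0.03 (adjusted p = 2.69e-05). Counts are per gene, so the secreted and intracellular forms of the antagonist, which start at different exons, are not separated.

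Il18, the gene of IL-18, lay at 4.85 to 6.43 CPM with HDM and 4.85 to 5.74 CPM with vehicle, and 3 of 6 pairs were higher with HDM. Its log2 fold change was 0.05 ± 0.08 SE (edgeR, adjusted p = 0.973; 0.02 ± 0.08 with the block). Bco2, whose annotation overlaps Il18, had 317 reads with HDM and 283 with vehicle. Il18bp, whose product binds IL-18 and keeps it from its receptor, lay at 4.77 to 6.01 CPM with HDM and 4.83 to 6.29 CPM with vehicle. Its log2 fold change was -0.02 ± 0.08 SE (edgeR, adjusted p = 1.00; -0.02 ± 0.07 with the block).

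**Figure D1:**
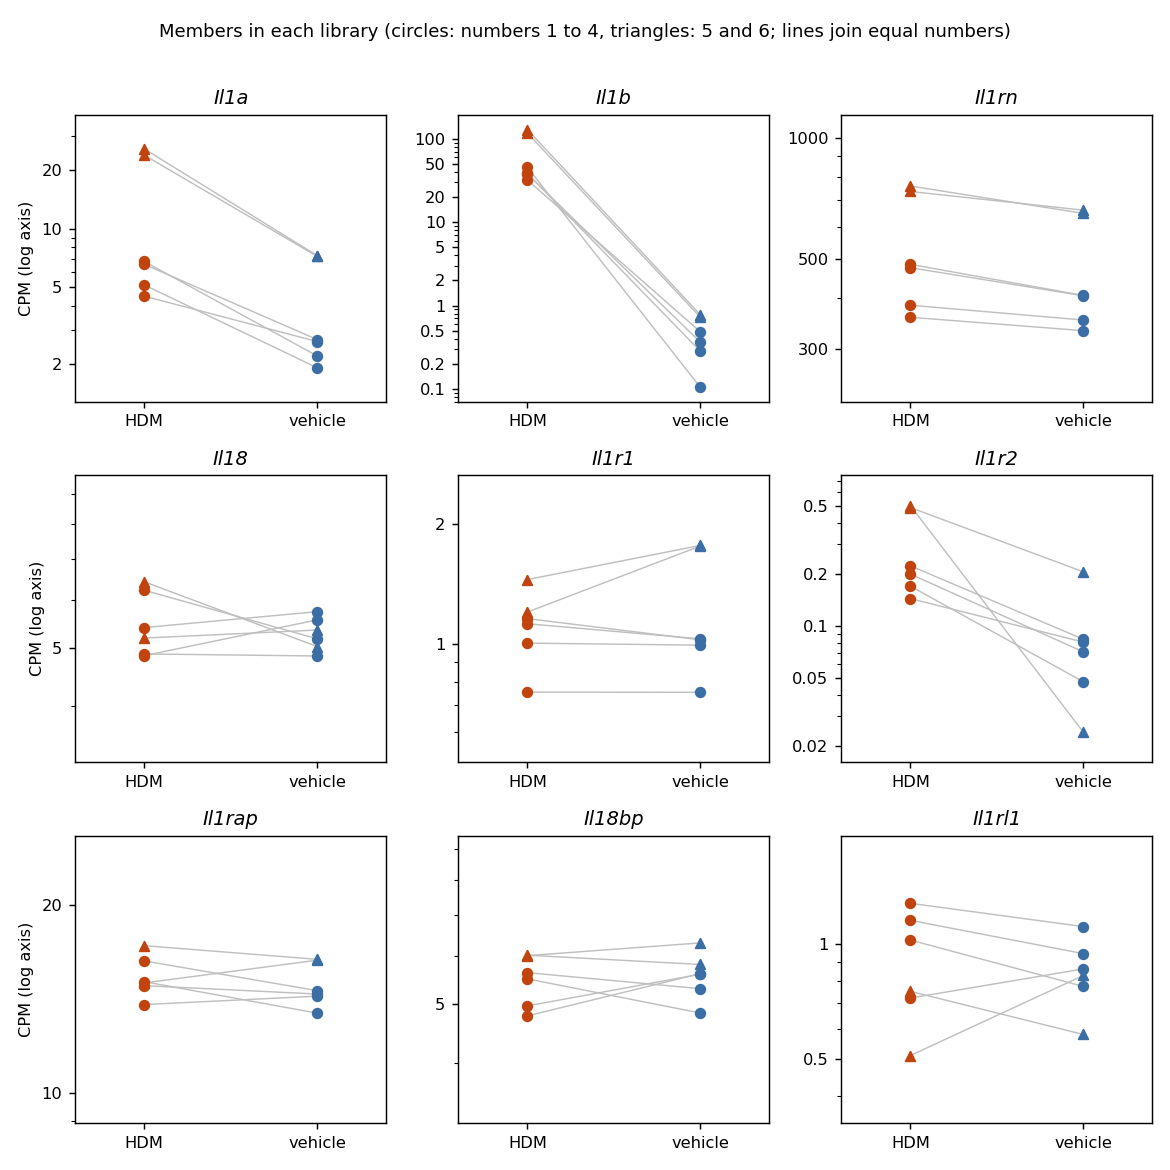
Each panel plots 1 member, with CPM on a log axis whose range differs between panels, HDM libraries at the left and vehicle libraries at the right, and lines joining libraries of equal number. Il1b parts the treatments fully, Il1a and Il1r2 do so within numbers 1 to 4 (circles) and within 5 and 6 (triangles), and Il1rn slopes the same way in all 6 pairs. The share of all genes that part within a set was not computed.

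Among the receptors, Il1r1 encodes the chain that binds both IL-1 cytokines. It was low, with 20 to 91 reads per library with HDM and 34 to 73 with vehicle, or 0.756 to 1.45 CPM and 0.755 to 1.77 CPM. Its log2 fold change was -0.11 ± 0.23 SE (edgeR, adjusted p = 0.996; -0.09 ± 0.15 with the block). In numbers 5 and 6 it lay at 1.20 and 1.45 CPM with HDM, against 1.76 and 1.77 CPM with vehicle (-0.42 ± 0.24, adjusted p = 0.336), and in numbers 1 to 4 the value was 0.05 ± 0.20. Stromal and endothelial cells also express Il1r1. Their 8 markers summed to 14.3 to 39.4 CPM with HDM and 12.9 to 41.5 CPM with vehicle, most of it Kdr. The collagen genes Col1a1 and Col1a2 fell with the block (edgeR, adjusted p = 0.00141 and 0.0485) but were not called by group alone. Kdr (log2 fold change with the block 0.12, adjusted p = 0.0619), Cdh5 (0.12, adjusted p = 0.782) and Pecam1 (-0.0016, adjusted p = 0.997) were called in neither fit. Pdgfrb had 61 reads with HDM and 44 with vehicle, Dcn 43 and 46, and Pdgfra 8 and 0. The part of these markers in the Il1r1 values was not tested.

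Il1r2 encodes a receptor that binds IL-1 but does not signal. It had 27, 7, 4, 6, 22 and 18 reads in HDM libraries 1 to 6, against 4, 3, 3, 3, 4 and 1 in the vehicle libraries, and did not pass the filter on low counts. On the CPM scale all 6 pairs were higher with HDM, while vehicle library 5, at 0.207 CPM, lay above HDM libraries 2, 3 and 4. Over each group it had 0.277 reads per M with HDM and 0.0717 with vehicle, a ratio of 3.86 (exact 95% interval 2.30 to 6.82, counting error only). In a fit with no filter its log2 fold change was 1.91 ± 0.47 SE (edgeR, adjusted p = 0.0473; 1.75 with the block, adjusted p = 0.0021). Without the block that call was lost when any of HDM 1, HDM 3, HDM 5, HDM 6 or vehicle 1, 2, 3, 4 or 6 was left out (adjusted p 0.0612 to 0.139).

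Il1rap encodes the chain that the receptors for IL-1, IL-33 and IL-36 share. It varied least of the 8 tested members, at 13.8 to 17.2 CPM with HDM and 13.4 to 16.4 CPM with vehicle. Its log2 fold change was 0.05 ± 0.06 SE (edgeR, adjusted p = 0.951; 0.05 ± 0.05 with the block). Il1rl1 encodes ST2, the receptor of the alarmin IL-33. It lay at 0.512 to 1.28 CPM with HDM and 0.581 to 1.11 CPM with vehicle, with 16 to 154 reads per library, at a log2 fold change of 0.10 ± 0.23 SE (edgeR, adjusted p = 1.00; 0.11 ± 0.17 with the block). Mast cells and basophils are a known source of Il1rl1 transcripts. Their 8 markers summed to 0.458 to 1.51 CPM with HDM and 0.260 to 1.14 CPM with vehicle. Gata2, which other cells also express, had 257 reads with HDM and 128 with vehicle (log2 fold change 0.60, edgeR, adjusted p = 0.721; 0.59 with the block, adjusted p = 0.0699). Hdc had 18 reads with HDM and 2 with vehicle, Cpa3 7 and 5, Mcpt4 1 and 0, and Mcpt8, Tpsb2, Fcer1a and Ms4a2 none. Their part in the Il1rl1 values was not tested.

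In counts, 8 of the 9 members passed the filter. By group alone 1 of the 8 rose and 0 fell, where 5.37% of all 13530 tested genes were called, 2.9% higher and 2.47% lower with HDM. At an unadjusted p under 0.05, Il1a was the only other member, also a rise. With the block 3 rose (Il1a, Il1b and Il1rn) and 0 fell, where 14.7% of all tested genes were called, 7.9% higher and 6.81% lower. In numbers 1 to 4 alone 2 of 8 members were called, against 7.88% of all genes tested there, and in numbers 5 and 6 alone 4 of 9, against 8.47%. The 4 include Il1r2, which passed the filter there only through its HDM libraries. It had 22 and 18 reads in HDM 5 and 6, against 4 and 1 in vehicle 5 and 6. Its call there is therefore not independent of the filter. With no filter 2 of 9 were called, against 2.05%. The median log2 fold change of the 8 by group alone was 0.07, against 0.00 over all tested genes.

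**Figure D2:**
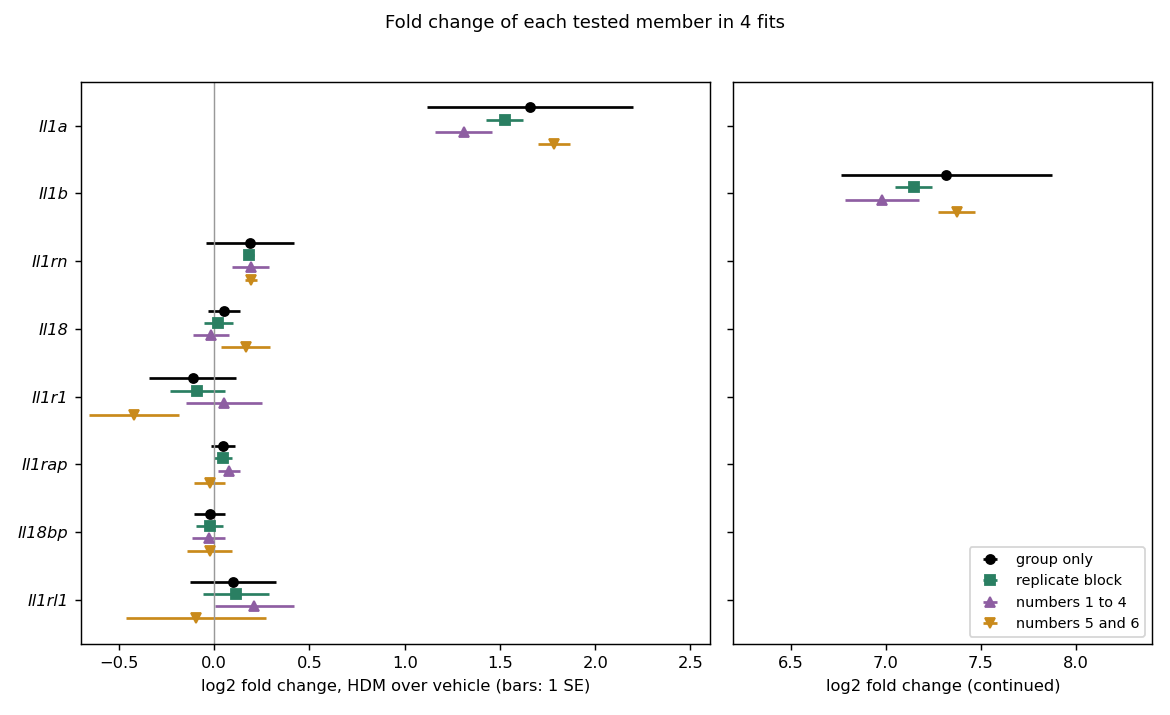
Log2 fold changes of the 8 tested members, HDM over vehicle, with bars of 1 SE, in the fit on group alone, with the replicate number as a block, and within numbers 1 to 4 or 5 and 6; the axis is broken between 2.6 and 6.2. Il1a, Il1b and, at 0.18 to 0.19, Il1rn lie above 0 in all 4 fits, and the SE of Il1a is 0.10 with the block and 0.54 by group alone.

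Because agonist, antagonist, decoy and binding protein are read from the same library, their ratio needs no scaling between libraries. A ratio of reads also depends on transcript length, so only its change is compared. The 5 ratios were each tested with a two-sided exact permutation test of the group labels, adjusted over the 5. Per 1000 reads of Il1rn there were 115 ± 39.6 reads of Il1b in HDM libraries and 0.951 ± 0.410 in vehicle libraries (SD over 6 each). The log2 ratio of Il1b to Il1rn was 6.98 higher with HDM (6 of 6 pairs, exact permutation p = 0.00216, the smallest that 6 libraries against 6 can give, adjusted p = 0.00271). It was 6.90 in numbers 1 to 4 and 7.13 in numbers 5 and 6. The permutation test ignores the pairing by number. A sign-flip test over the 6 pairs, whose smallest p is 0.0313, gave an adjusted p of 0.0391 for this ratio. It gave the same for Il1a to Il1rn, Il1b to Il1a and Il1r1 to Il1r2, and 0.5 for Il18 to Il18bp.

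The balance of Il1a to Il1rn moved less. There were 12.5 to 34.0 reads of Il1a per 1000 of Il1rn with HDM and 5.41 to 11.2 with vehicle, so these groups did not overlap although those of Il1a itself did. The log2 ratio was 1.26 higher with HDM (exact permutation test, adjusted p = 0.00271), with 0.67 to 1.60 in single pairs. Il1b also gained on Il1a, by 5.72 on the log2 scale (6 of 6 pairs, exact permutation test, adjusted p = 0.00271). The test results of both ratios with Il1b follow from the wide parting of Il1b itself. The ratios among Il1a, Il1b and Il1rn are also not independent of each other. With HDM every library held more reads of Il1b than of Il1a, and with vehicle every library held fewer.

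The ratio of Il18 to its binding protein gene was 0.08 higher with HDM on the log2 scale (exact permutation test, p = 0.452), with pairs from -0.38 to 0.30. The log2 ratio of the signalling receptor Il1r1 to the decoy Il1r2 was 2.04 ± 0.64 with HDM and 3.81 ± 1.00 with vehicle (SD over 6 libraries each), a difference of -1.77 (exact permutation test, adjusted p = 0.00271). It was lower with HDM in 6 of 6 pairs, by -0.56 to -4.11, and rests on the few reads of Il1r2.

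**Figure D3:**
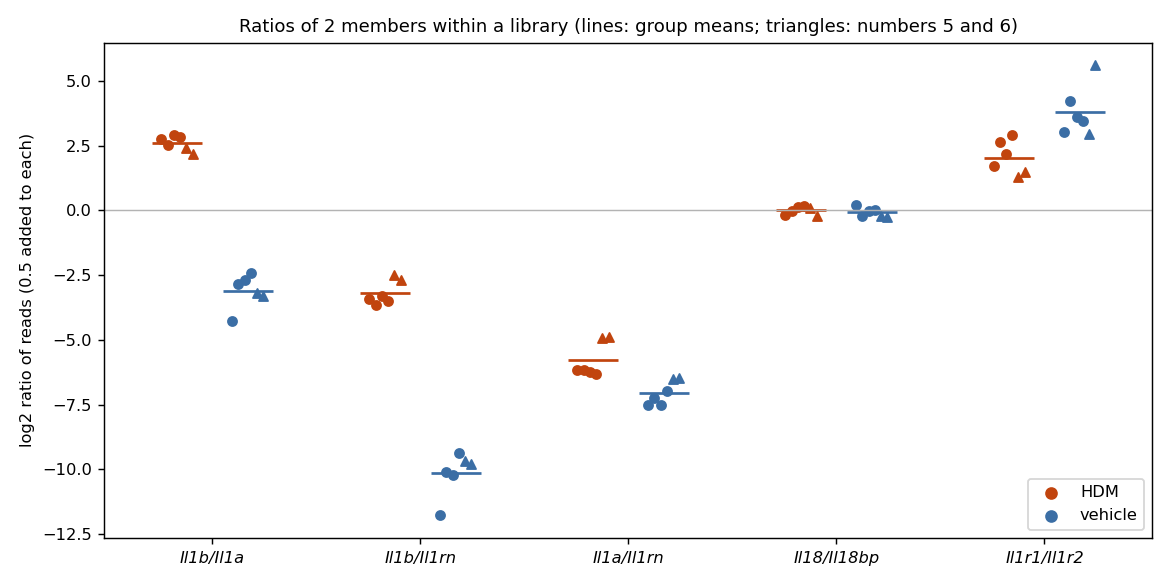
Log2 ratios of the reads of 2 members in each library (0.5 added to each count), HDM at the left of each pair of columns and vehicle at the right; lines are group means and triangles the libraries numbered 5 and 6. The groups are apart for 4 ratios and overlap for Il18 to Il18bp, where the difference is 0.08.

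Levels of different genes were compared per length, as reads per kb of exon per M reads, with the exon length taken from GENCODE M21. With HDM the order of the means was Il1rn (96.4), Il1b (35.0), Il1a (6.14), Il18 (5.33), Il18bp (1.81), Il1rap (1.35), Il1r1 (0.175), Il1r2 (0.151) and Il1rl1 (0.132). Neighbours whose ranges over libraries overlapped were Il1rn and Il1b, Il1a and Il18, and the last 3. With vehicle the order was Il1rn (84.6), Il18 (5.12), Il1a (2.01), Il18bp (1.84), Il1rap (1.31), Il1b (0.239), Il1r1 (0.192), Il1rl1 (0.123) and Il1r2 (0.0449). There the ranges of Il1a and Il18bp overlapped, as did those of each neighbouring pair from Il1b down. Il1b thus had rank 2 with HDM and rank 6 with vehicle, while Il1rn had rank 1 in both. The number sets differed in the place of Il1a. In numbers 1 to 4 it averaged 2.90 with HDM, below Il18 at 5.18, and 1.19 with vehicle, below Il18bp at 1.76 and Il1rap at 1.25. In numbers 5 and 6 it averaged 12.6 with HDM, above Il18 at 5.63, and 3.66 with vehicle, above Il18bp at 2.00. The ranges of Il1rn and Il1b with HDM did not overlap within either set, and their ranks were those given above in both sets. Among the last 3 with HDM, Il1r2 stood below Il1rl1 in numbers 1 to 4 and above Il1r1 in numbers 5 and 6. With the longest coding transcript as length the ranks of Il1b and Il1rn were the same. Il18 then stood above Il1a, Il1rap above Il18bp and Il1r2 above Il1r1 with HDM, and with vehicle Il1rap had rank 3 and Il1a rank 5.

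**Figure D4:**
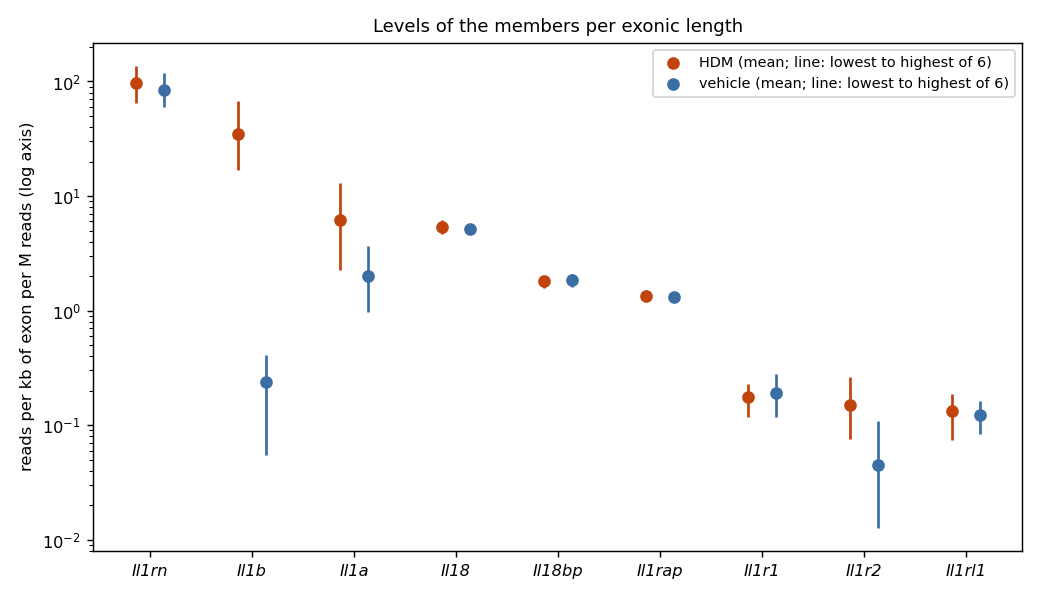
Level of each member per kb of exon per M reads on a log axis, HDM left of vehicle, with the mean of 6 libraries as a point and a line from the lowest to the highest. Il1b is at 35.0 with HDM and 0.239 with vehicle, while the points of Il18, Il18bp and Il1rap nearly coincide.

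Other genes were ranked by how closely their profile over the 12 libraries followed that of a member, as the root mean square difference of mean-centred log2 CPM. The 12 libraries span both treatments and both number sets, so a change of like size between treatments or sets brings 2 profiles close. The genes nearest to Il1b had log2 fold changes of 5.83 to 8.48. For Il1b the nearest of 10794 genes were the neutrophil chemokine gene Cxcl1 (0.50), Il6 (0.58), the cyclooxygenase gene Ptgs2 (0.75) and Cxcl2 (0.78), where its own profile had a root mean square of 3.61. For Il1a (1.16) they were the tissue factor gene F3 (0.35), the growth factor gene Bmp2 (0.41), the activin subunit gene Inhba (0.42) and the adhesion gene Flrt3 (0.42). For Il1rn (0.42) the nearest was Malt1 (0.07), which encodes a protease of the CARD9 and BCL10 pathway, then Emb (0.10), the gene of a membrane glycoprotein, the sugar transporter gene Slc2a6 (0.11) and the kinase gene Rps6ka2 (0.11). The remaining 5 tested members varied little, with a root mean square of 0.10 to 0.37, and the nearest genes were Agrn for Il18, Miga1 for Il1r1, Ccdc43 for Il1rap, Hint2 for Il18bp and Zfp69 for Il1rl1.

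Most other genes of the family had few or no reads, with the receptor gene Il1rl2 as an exception. Of 6 further ligands, Il33 had 1 read in each treatment, Il36a 17 with HDM and 5 with vehicle, and Il36b, Il36rn and Il1f10 none. Il36g, listed under its older symbol Il1f9, was the only one tested, at 0.744 CPM with HDM and 0.757 CPM with vehicle (log2 fold change -0.08 ± 0.31 SE, edgeR, adjusted p = 1.00). Of 6 further receptors 3 were tested and 0 called by group alone or with the block, with 0 at an unadjusted p under 0.05. These were Il1rl2, the IL-36 receptor gene, at 12.4 ± 2.66 CPM with HDM and 12.3 ± 2.42 CPM with vehicle, Il18rap at 1.66 ± 0.682 and 1.56 ± 0.650 CPM, and the inhibitory receptor gene Sigirr at 1.36 ± 0.442 and 1.57 ± 0.523 CPM (SD, n = 6 each). Il18r1, which encodes the chain that binds IL-18, had no reads in any library.

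Receptor-proximal signalling runs from the adaptor MyD88 through IRAK kinases and TRAF6 to the kinase TAK1 (Map3k7) and its TAB partners. Of 14 genes, all tested, 1 rose and 1 fell by group alone, and 2 rose and 1 fell with the block, with a median log2 fold change of 0.01. Of all tested genes 2.9% rose and 2.47% fell by group alone, and 7.9% rose and 6.81% fell with the block. Peli1, the gene of a ubiquitin ligase of IRAK complexes, rose to 31.4 ± 1.03 CPM with HDM, against 26.8 ± 1.33 CPM with vehicle (SD over 6 libraries each; log2 fold change 0.23 ± 0.04 SE, edgeR, adjusted p = 0.0036). Tab1, the gene of a TAK1-binding protein, fell by 0.31 ± 0.07 on the log2 scale, to 15.7 ± 1.70 CPM with HDM, against 19.5 ± 1.27 CPM with vehicle (edgeR, adjusted p = 0.0203, and 0.0519 without HDM 4). Irak2, a kinase gene of the same complexes, was at 0.15 ± 0.06 (edgeR, adjusted p = 0.192) and was called with the block (adjusted p = 0.000791). Map3k7 was at 0.04 ± 0.03 (edgeR, adjusted p = 0.644).

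Processing and release of IL-1 beta and IL-18 depend on inflammasome sensors, caspases and the pore protein gasdermin D. Of 15 such genes, all tested, 1 rose and 0 fell by group alone, and 1 rose and 1 fell with the block, with a median log2 fold change of -0.01. These counts stand against 5.37% of all tested genes called by group alone and 14.7% with the block. The rise was that of Nlrp3, which encodes the sensor of the NLRP3 inflammasome, at 193 ± 43.5 CPM with HDM and 74.1 ± 6.69 CPM with vehicle (SD over 6 libraries each; log2 fold change 1.39 ± 0.13 SE, edgeR, adjusted p = 1.37e-05). Ninj1, whose product ruptures the membrane of dying cells, was at -0.12 ± 0.07 (edgeR, adjusted p = 0.466) and fell with the block (adjusted p = 0.00312). Gsdmd was at -0.07 ± 0.04 (edgeR, adjusted p = 0.620) and Casp8 at 0.08 ± 0.05 (edgeR, adjusted p = 0.624).

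**Figure D5:**
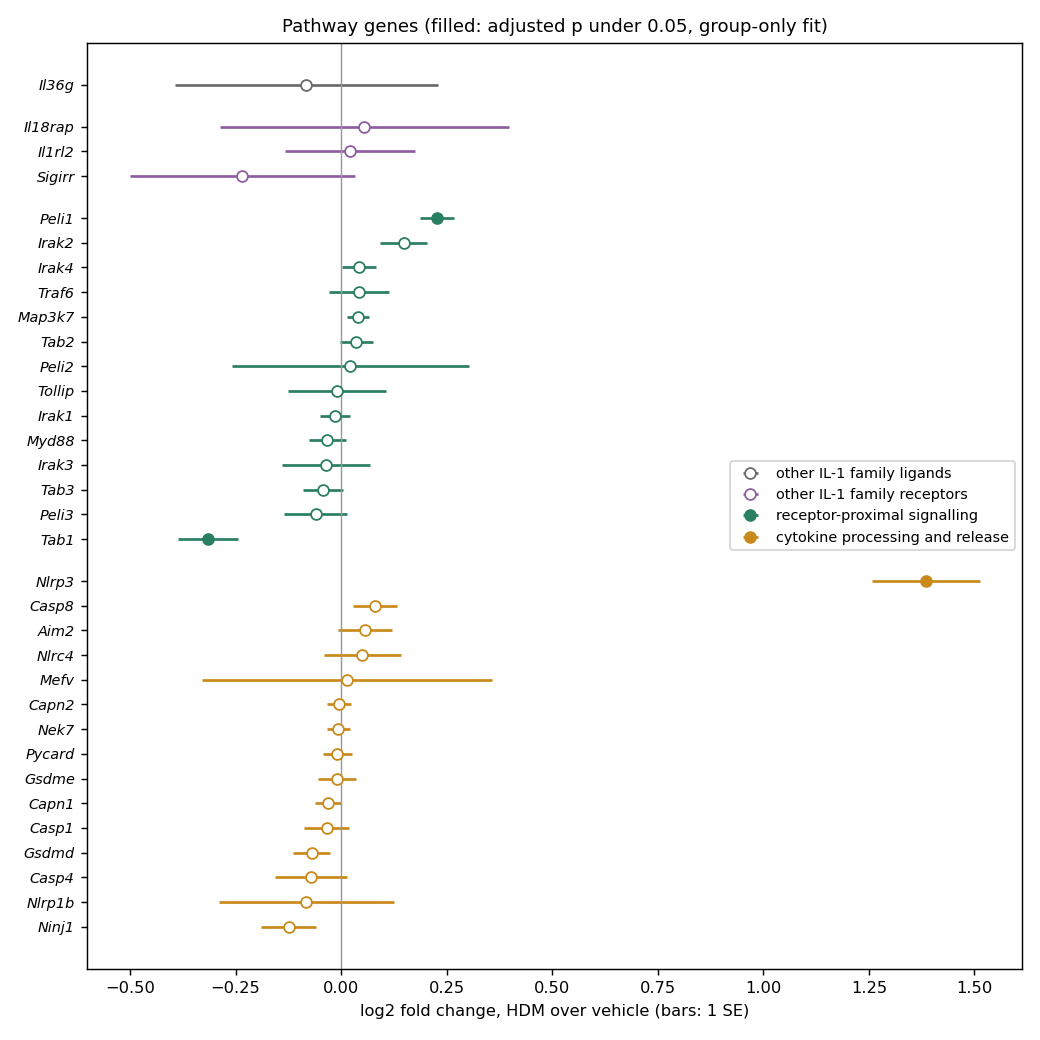
Log2 fold changes (HDM over vehicle, bars of 1 SE) of the 33 tested genes of the 4 pathway lists, coloured by list; filled points passed an adjusted p of 0.05 in the fit on group alone. Nlrp3, Peli1 and Tab1 are the filled points, and Nlrp3 stands apart at 1.39.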

How the data were processed

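The authors deposited raw counts per gene symbol, 1 column per library. Per the submitters' processing notes, reads were handled with STAR 2.6.0c, featureCounts 2.0.6, cutadapt 4.5, Trim Galore 0.6.10 and FastQC 0.12.1, with builds GRCm38 and mm39 named without a role. Libraries were stranded and poly(A)-selected, per the labels' protocols; the counting's strand setting and annotation were not found in those sources, and reads of overlapping antisense genes may be mixed. Depth ran from 19.7 to 119.7 M counts.

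Counts were fitted with edgeR 4.0.16 (limma 3.58.1, DESeq2 1.42.0, R 4.3.3) over all 13530 genes passing filterByExpr, with TMM factors and group as the only term, by the quasi-likelihood F test, two-sided. P-values were adjusted by Benjamini-Hochberg over all tested genes and called under 0.05. The SE is the absolute log2 fold change divided by the square root of F. The fit was tested on simulated data.

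Both treatments carry numbers 1 to 6. Deviations from group means correlated at 0.367 to 0.672 between equal numbers, above the bound of 0.1, so equal numbers were treated as pairs; this comes from the data, not the labels. Only 2 of the 6 HDM libraries correlated best with their own number. HDM 1 and 2 did so with vehicle 2, HDM 3 with vehicle 4 and HDM 4 with vehicle 3. For HDM 5 and 6 it was vehicle 6. Equal numbers may thus mark a shared set more than a shared culture. The 6 pairs may hold fewer than 6 independent units, and the p-values with the block could then be too small.

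The members and gene lists were chosen with earlier results of these data known. Named genes are the members, up to 4 genes per pathway list with the smallest p, and the 4 nearest profiles of each tested member among genes averaging 1 CPM or more, of which the first alone is named for 5 members. Col1a1, Col1a2 and single other marker genes, and genes overlapping a member, were named after their values were seen. Alternatives were other scalings, filters, tools, the block, the number sets and leaving out each library. One further macrophage marker is not reported here, and the marker sum is over the other 7. Intervals cover counting error only.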

Additional observations from a re-analysis of the deposited data

Results flagged for a closer look

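Of 28 groups of 6 values examined (9 members and 5 ratios, in each treatment), 2 held a library far from the others, and chance alone marks about 1 group in 20. Il1r2 in vehicle library 5 lay at 0.207 CPM, against 0.0242 to 0.0839 CPM in the other vehicle libraries. This is a count of 4 reads in the library of the lowest depth. The log2 ratio of Il1b to Il1rn in vehicle library 1 was -11.78, against -10.23 to -9.38 in the other vehicle libraries, and rests on 5 reads of Il1b.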

How the results depend on the processing

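With the replicate block the test called 1990 genes in place of 727, 3 members in place of 1 and 5 pathway genes in place of 3, and Il1a (1.52) and Il1rn (0.18) passed. Of the 727, 726 were among the 1990. The block changed no other member's call. In numbers 1 to 4 alone 1076 genes (7.88% of those tested) and 2 members were called, with Il1a at 1.31. In numbers 5 and 6 alone 1139 genes (8.47%), 4 members and 6 pathway genes were called, with Il1a at 1.78 and Il1rn at 0.19. Il1r2, at 2.52, passed the filter there only through its HDM libraries. With no filter 572 genes (2.05%) and 2 members were called, Il1b and Il1r2. In numbers 5 and 6 alone the ratio differences were 5.54 (Il1b to Il1a), 7.13 (Il1b to Il1rn), 1.59 (Il1a to Il1rn) and -2.89 (Il1r1 to Il1r2), where 2 libraries against 2 cannot give an exact permutation p below 0.333. Uncalled members near 0 turned sign: in numbers 1 to 4 Il18 to -0.0175 and Il1r1 to 0.051, and in numbers 5 and 6 Il1rap to -0.0246 and Il1rl1 to -0.0974.

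Leaving out 1 library at a time, 1 member was called throughout and Il1b stayed between 7.02 and 7.56. Il1a ran from 1.30 to 1.96 (adjusted p 0.0793 to 0.258), Il1rn from 0.06 to 0.31, Il18 from -0.00222 to 0.0887, Il18bp from -0.0622 to 0.0206, Il1r1 from -0.22 to 0.0392, Il1rap from 0.01 to 0.08, Il1rl1 from -0.0622 to 0.22, and calls over all genes from 561 to 694. The sign turned for Il18 without HDM 5, Il18bp without HDM 2 (0.0108), HDM 4 (0.0206) or vehicle 6 (0.0163), Il1r1 without vehicle 6, and Il1rl1 without HDM 1. The scalings moved the median of all genes by at most 0.02. Low reads limit Il1r2, Il1r1 and Il1rl1. Ranks by the longest transcript and within the number sets, and the unfiltered Il1r2 fits with the block or without 1 library, were added after seeing the data.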
